A study of Mus musculus with 30 samples.

Results

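Interferon regulatory factors (IRFs) are transcription factors that share a DNA-binding domain which reads GAAA repeats, the core of interferon-stimulated response elements. The family described here had 8 genes, Irf1, Irf2, Irf3, Irf4, Irf5, Irf7, Irf8 and Irf9, named through the transcript accession of their array probes, each represented by its probe with the brightest sample signal. All 8 were among the 11250 genes that passed the filter on dim probes. IRF3, IRF5 and IRF7 lie idle in the cytoplasm until receptors such as TLR4, the receptor of bacterial lipopolysaccharide (LPS), lead to their phosphorylation. IRF9 is the DNA-binding subunit of the complex ISGF3, which carries the type I interferon signal to the nucleus. IRF1 activates and IRF2 often represses overlapping targets, while IRF4 and IRF8 bind beside the ETS factor PU.1 and direct the development of dendritic cells.

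The RNA came from bone marrow-derived dendritic cells of C57BL/6 mice. KO cells came from mice with the genotype CD11c-Cre IRF-4 flox/flox, in which the recombinase is driven by the promoter of CD11c (Itgax), a dendritic cell integrin, and control cells came from mice with CD11c-Cre alone, so both genotypes carried the recombinase. Cells of each genotype were left unstimulated or were exposed to LPS for 6 or 24 h, and CD11c+ cells were then selected with magnetic beads, which gave 6 groups of 5 biological replicates on 30 arrays. The labels leave unsaid if replicates were separate mice or separate cultures, and the p-values reflect only the variation among these 30 samples, which may be partly technical. Each array set the sample RNA, in Cy5, against 1 universal mouse reference RNA, in Cy3, and the values are log2 ratios of sample over reference, so a value compares samples for 1 gene and does not rank genes. In bulk RNA, fewer cells that express a gene and less RNA per cell cannot be told apart.

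The median Cy5 signal of an array was 101 to 151, and 44.8 to 66.1% of its probes were well above background. Of the dendritic cell markers on the array, Flt3 was well above background on 0 of 30 arrays, and Itgax, Zbtb46, Cd74, Ciita, Cd86 and the MHC class II genes on all 30. The arrays lay on 9 slides, and no slide held both genotypes under 1 treatment. Replicate 3 of the control LPS 6 h group and replicate 2 of the control LPS 24 h group shared a slide scanned later than the others, and their Irf7 values lay close to those of unstimulated cells. KO unstimulated replicates 1 and 5 stood apart from the other 3 arrays of their group in Irf4, Irf5 and Irf9. Values without these arrays are given beside many of the results that rest on them.

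Between KO and control cells, 3 of the 8 genes passed the test in unstimulated cells, 3 after 6 h of LPS and 2 after 24 h. A gene passed at an adjusted p under 0.05 (limma, Benjamini-Hochberg over all genes tested). Over all 11250 genes the shares were 14.1%, 12.1% and 15.4%. Irf4 and Irf5 were lower in KO cells in all 3 treatments, with Irf9 lower in unstimulated cells and Irf1 higher at 6 h. With LPS, 5 of the 8 genes rose in KO cells at 6 h and 5 at 24 h, where 26.6% and 18.1% of all genes changed. In control cells 3 rose at 6 h and 2 at 24 h, against 11.7% and 12.3% of all genes. Without the 2 arrays of the later slide 5 rose in control cells at 6 h and 3 at 24 h, against 25.6% and 19.9% of all genes. The median absolute difference over the 8 genes was 1.25 for LPS at 6 h in KO cells and 0.46 in control cells, beside 0.29 and 0.20 over all genes. No gene of the family passed between 24 h and 6 h of LPS in either genotype, with 1 of 8 at an unadjusted p under 0.05 by limma in KO cells, Irf1, and 1 in control cells, Irf3 (7.72% of all genes passed in KO cells and 5.47% in control cells). The LPS comparisons of a genotype share its unstimulated arrays, and each LPS comparison shares arrays with the comparisons of the genotypes.

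**Figure D1:**
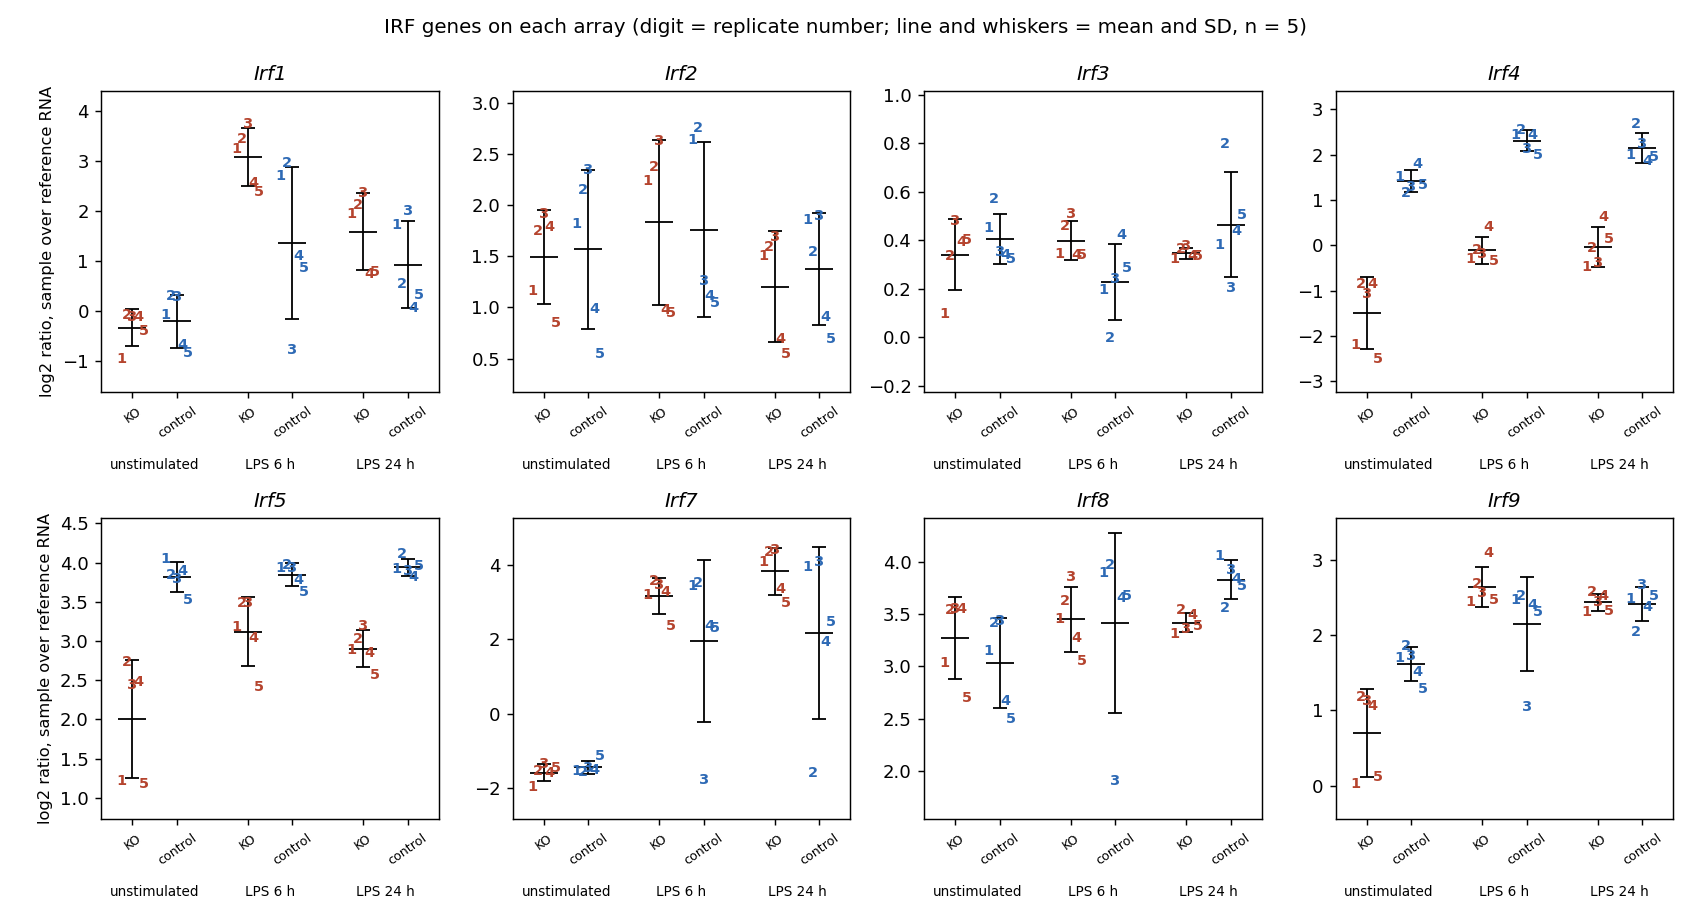
Log2 ratio of sample over reference RNA (y axis) for each of the 8 genes in the 6 groups (x axis); each digit is 1 array and gives its replicate number, red for KO and blue for control, and the line and whiskers are the group mean and SD (n = 5). Irf4 and Irf5 of KO cells lie below those of control cells in each treatment, and the Irf7 values of replicate 3 at 6 h (-1.79) and of replicate 2 at 24 h (-1.61) of LPS in control cells lie with those of unstimulated cells.

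Recognition sequences for IRFs themselves, and for the factors that LPS and interferon activate, were looked for in the 250 bases before the transcription start. RefSeq (GRCm38.p6) gave 11 such windows for the 8 genes. They were searched on both strands for an ISRE core (a pair of GAAA copies with 2 bases between them), an ETS-IRF composite (GGAA and GAAA with 2 bases between them), a GAS element for STAT dimers (TTC and GAA with 3 bases between them, which reads alike on both strands) and the NF-kB consensus. Of all 32851 windows, 2.98% held the ISRE core, 2.3% the ETS-IRF composite, 7.02% the GAS element and 3.9% the NF-kB consensus. Windows of Irf1, Irf2 and Irf8 held at least 1 of them. Those windows are printed 5′ to 3′ on the gene's strand with the matches in capitals, beside that of Irf7, the gene with the largest LPS response. The Irf1 window (chr11:53769764-53770013, + strand) had a GAS element 90 to 82 bases before the start and an NF-kB match 13 to 4 bases before it. The Irf2 window (chr8:46739495-46739744, + strand) had an ETS-IRF composite that overlapped an ISRE core, a GAS element and an NF-kB match. The Irf8 window (chr8:120736108-120736357, + strand) had 2 GAS elements. The Irf7 window (chr7:141266425-141266674, - strand) had no match to these letters, nor did any window of Irf3, Irf4, Irf5 or Irf9. A match is a description of these letters and not a measured binding site. A missing match does not show that a gene lacks such sites, since other bases and looser forms of these sequences were not searched.
Irf1: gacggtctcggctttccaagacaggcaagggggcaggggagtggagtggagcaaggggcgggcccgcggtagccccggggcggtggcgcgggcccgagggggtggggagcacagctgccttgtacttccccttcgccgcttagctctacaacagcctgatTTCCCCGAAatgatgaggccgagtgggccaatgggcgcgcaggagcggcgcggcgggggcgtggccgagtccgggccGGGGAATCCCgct
Irf2: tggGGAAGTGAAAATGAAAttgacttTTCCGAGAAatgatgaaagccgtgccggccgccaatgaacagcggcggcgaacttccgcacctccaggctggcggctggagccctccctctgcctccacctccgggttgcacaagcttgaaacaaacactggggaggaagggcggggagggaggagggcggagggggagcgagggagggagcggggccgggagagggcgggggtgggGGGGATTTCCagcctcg
Irf8: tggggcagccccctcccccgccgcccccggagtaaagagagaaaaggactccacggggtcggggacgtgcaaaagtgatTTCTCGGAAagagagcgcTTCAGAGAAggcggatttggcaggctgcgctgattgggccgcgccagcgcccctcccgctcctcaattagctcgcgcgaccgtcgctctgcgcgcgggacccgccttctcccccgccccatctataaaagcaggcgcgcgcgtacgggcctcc
Irf7: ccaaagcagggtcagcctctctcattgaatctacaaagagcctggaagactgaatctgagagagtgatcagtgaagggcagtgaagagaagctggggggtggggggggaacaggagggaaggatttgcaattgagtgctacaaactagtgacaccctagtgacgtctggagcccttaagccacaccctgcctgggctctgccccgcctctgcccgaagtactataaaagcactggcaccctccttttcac

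Irf4, the targeted gene, had the largest difference between KO and control cells of the 8 in every treatment. IRF4 supports dendritic cells that present antigen on MHC class II. In unstimulated KO cells its log2 ratio was -2.20, -0.85, -1.06, -0.84 and -2.51 in replicates 1 to 5, against 1.51, 1.16, 1.28, 1.79 and 1.32 in control cells. At 6 h of LPS it was -0.31, -0.11, -0.20, 0.41 and -0.34 in KO cells, against 2.44, 2.55, 2.13, 2.42 and 1.99 in control cells. At 24 h it was -0.47, -0.06, -0.38, 0.62 and 0.14 in KO cells, against 1.99, 2.68, 2.23, 1.86 and 1.95 in control cells. The groups did not overlap in any treatment. The difference was -2.90 ± 0.27 unstimulated (SE; limma adjusted p = 3.59e-08), a 7.48-fold lower level, -2.42 ± 0.27 at 6 h (adjusted p = 8.80e-07) and -2.17 ± 0.27 at 24 h (adjusted p = 2.69e-06). With KO unstimulated replicates 1 and 5 left out the unstimulated difference was -2.33 (adjusted p = 1.60e-07). With the slide as a block it was -2.18 unstimulated (adjusted p = 0.0268), -1.96 at 6 h (adjusted p = 0.0906) and -2.42 at 24 h (adjusted p = 0.0240).

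A single probe represented Irf4. The sources used here do not say if it lies inside the deleted exons, and residual signal in KO cells cannot be assigned to intact or to deleted transcripts. The probe was well above background on 29 of 30 arrays, the exception being KO unstimulated replicate 5. With LPS, Irf4 rose in KO cells by 1.38 ± 0.27 at 6 h (limma adjusted p = 0.000318) and by 1.46 ± 0.27 at 24 h (adjusted p = 0.000301), with no overlap between the groups. In control cells it rose by 0.90 ± 0.27 at 6 h (adjusted p = 0.0272), and the 24 h difference of 0.73 ± 0.27 missed the threshold (adjusted p = 0.0712), with all 5 LPS arrays above all 5 unstimulated arrays. The 6 h call in control cells was lost on leaving out any of 5 single arrays of its groups, control LPS 6 h replicates 1, 2 and 4 and control unstimulated replicates 2 and 3, with differences of 0.83 to 0.87. Leaving out KO unstimulated replicates 1 and 5, the rises in KO cells were 0.81 at 6 h (adjusted p = 0.00924) and 0.89 at 24 h (adjusted p = 0.00770).

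Irf8 did not pass in any comparison, though some of its differences passed under other settings. IRF8 directs the development of cross-presenting and plasmacytoid dendritic cells and is the family member closest to IRF4. In unstimulated KO cells it ranged over 2.70 to 3.55 with a median of 3.54, against 2.50 to 3.43 with a median of 3.15 in control cells. The KO minus control difference was 0.24 (95% confidence interval -0.32 to 0.81) unstimulated, 0.03 (-0.53 to 0.60) at 6 h and -0.41 (-0.98 to 0.15) at 24 h. The sign at 6 h turned without the later slide, with -0.35 (limma adjusted p = 0.267), and the 24 h difference was -0.48 (adjusted p = 0.103). At 24 h of LPS the values were 3.31, 3.54, 3.36, 3.49 and 3.39 in KO cells, against 4.06, 3.56, 3.93, 3.84 and 3.77 in control cells. These groups did not overlap, which gave an exact two-sided permutation p of 0.00794, the smallest that 5 arrays against 5 allow, beside a limma adjusted p of 0.365 over all genes. With only the arrays compared in the fit this difference of -0.41 passed (limma adjusted p = 0.0466). In control cells the 24 h arrays also lay above the unstimulated arrays, by 0.80 ± 0.28 (limma adjusted p = 0.0562). That difference passed with Cy5 alone (adjusted p = 0.0187), backgrounds as scanned (adjusted p = 0.0237) and the mean of all probes (adjusted p = 0.0374). It also passed with median centring, with only the arrays compared, and with the replicate number or the slide as a block. Control LPS 6 h replicate 3 had 1.90, and without the 2 arrays of the later slide Irf8 rose in control cells by 0.76 at 6 h (adjusted p = 0.00418) and by 0.86 at 24 h (adjusted p = 0.00197). In that fit the differences in KO cells were 0.18 (adjusted p = 0.488) and 0.15 (adjusted p = 0.609). The second Irf8 probe gave -0.49 for KO minus control at 24 h and 0.89 for LPS at 24 h in control cells.

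Irf5 was the other gene of the family that was lower in KO cells under every treatment. IRF5 acts below MYD88 and drives genes of inflammatory cytokines. In unstimulated KO cells it measured 1.21, 2.73, 2.43, 2.48 and 1.18, against 4.05, 3.84, 3.79, 3.89 and 3.52 in control cells. At 6 h of LPS it measured 3.18, 3.48, 3.48, 3.04 and 2.41 in KO cells, against 3.93, 3.97, 3.93, 3.77 and 3.63 in control cells. At 24 h it measured 2.89, 3.03, 3.19, 2.84 and 2.56 in KO cells, against 3.91, 4.11, 3.90, 3.81 and 3.95 in control cells. Every KO array lay below every control array of its treatment. The difference was -1.81 ± 0.24 unstimulated (limma adjusted p = 8.18e-06), a 3.50-fold lower level, -0.73 ± 0.24 at 6 h (adjusted p = 0.0415) and -1.03 ± 0.24 at 24 h (adjusted p = 0.00303). In the fit without KO unstimulated replicates 1 and 5 the unstimulated difference was -1.27 (adjusted p = 6.56e-05). With the slide as a block the 3 differences were -1.43, -0.53 and -1.82 and none passed (adjusted p = 0.0984, 0.609 and 0.0558). The 6 h call was also lost under 5 other settings of the processing or of the arrays used, and on leaving out KO LPS 6 h replicate 1, 4 or 5 or control LPS 6 h replicate 1, 2, 3 or 4, with differences of -0.98 to -0.55.

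Irf5 rose with LPS in KO cells and did not pass in control cells. The rise in KO cells was 1.11 ± 0.24 at 6 h (limma adjusted p = 0.000813) and 0.90 ± 0.24 at 24 h (adjusted p = 0.00836), and the LPS arrays overlapped the unstimulated arrays at both times. In control cells the difference was 0.03 (95% confidence interval -0.45 to 0.51) at 6 h and 0.12 (-0.36 to 0.60) at 24 h. When KO unstimulated replicates 1 and 5 were left out, the rise in KO cells was 0.57 at 6 h (adjusted p = 0.0238) and the 24 h difference was 0.36 (adjusted p = 0.215). With median centring in place of loess neither passed (0.96 at 6 h, adjusted p = 0.0665, and 0.82 at 24 h, adjusted p = 0.170), nor did the 24 h difference with backgrounds as scanned (adjusted p = 0.0514) or with only the arrays compared (adjusted p = 0.0622).

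Irf3 varied least. IRF3 is present before stimulation and is switched on by phosphorylation rather than by new RNA. Its group means lay between 0.23 (control, LPS 6 h) and 0.46 (control, LPS 24 h), neighbouring groups overlapped throughout, and it passed in no comparison. The KO minus control difference was -0.07 (95% confidence interval -0.26 to 0.13) unstimulated, 0.17 (-0.03 to 0.37) at 6 h and -0.12 (-0.32 to 0.08) at 24 h.

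Irf7 had the largest LPS response of the family in both genotypes. IRF7 is itself induced by interferon and amplifies the interferon-alpha genes. At 6 h of LPS it measured 3.19, 3.56, 3.46, 3.27 and 2.37 in KO cells, against -1.97, -1.55, -1.36, -1.58 and -1.46 in unstimulated KO cells, a rise of 4.76 ± 0.80 (limma adjusted p = 7.00e-05). At 24 h of LPS it measured 4.08, 4.35, 4.40, 3.37 and 2.97 in KO cells, a rise of 5.42 ± 0.80 (adjusted p = 3.08e-05). All LPS arrays of KO cells lay above all unstimulated ones. In control cells Irf7 measured 3.43, 3.52, -1.79, 2.37 and 2.30 at 6 h and 3.96, -1.61, 4.10, 1.92 and 2.46 at 24 h, against -1.54, -1.57, -1.46, -1.50 and -1.15 unstimulated. The rise was 3.41 ± 0.80 at 6 h (adjusted p = 0.00583) and 3.61 ± 0.80 at 24 h (adjusted p = 0.00418). Without the 2 arrays of the later slide it was 4.35 at 6 h (adjusted p = 3.54e-09) and 4.56 at 24 h (adjusted p = 3.19e-09) in control cells.

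Between KO and control cells Irf7 did not pass in any treatment. The difference was -0.14 (95% confidence interval -1.79 to 1.51) unstimulated, 1.20 (-0.45 to 2.85) at 6 h and 1.67 (0.02 to 3.32) at 24 h. Without the later slide it was 0.26 at 6 h (limma adjusted p = 0.723) and 0.72 at 24 h (adjusted p = 0.232). Within the slide that held unstimulated and LPS 6 h arrays of control cells, 2 of each, the LPS 6 h mean was higher by 4.80, and within the slide that held 1 LPS 6 h and 3 unstimulated arrays of KO cells it was higher by 4.66.

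Irf9 was lower in unstimulated KO cells, and after LPS its KO and control arrays overlapped. Unstimulated KO cells had 0.02, 1.18, 1.13, 1.06 and 0.11, against 1.70, 1.86, 1.72, 1.52 and 1.29 in control cells. Every KO array lay below every control array, and the difference was -0.92 ± 0.24 (limma adjusted p = 0.00903), a 1.89-fold lower level. Without KO unstimulated replicates 1 and 5 it was -0.50 (adjusted p = 0.206), and with the slide as a block -0.17 (adjusted p = 0.807). At 6 h of LPS KO cells had 2.44, 2.68, 2.56, 3.09 and 2.47, against 2.48, 2.52, 1.05, 2.41 and 2.31 in control cells. At 24 h KO cells had 2.31 to 2.58 with a median of 2.45, against 2.05 to 2.67 with a median of 2.48 in control cells. Neither LPS comparison passed, with differences of 0.50 (95% confidence interval 0.01 to 0.99) and 0.02 (-0.47 to 0.51). With the later slide left out these were 0.22 (limma adjusted p = 0.528) and -0.07 (adjusted p = 0.879).

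Within KO cells Irf9 rose with LPS by 1.95 ± 0.24 at 6 h (limma adjusted p = 1.37e-06) and by 1.74 ± 0.24 at 24 h (adjusted p = 1.14e-05), with no overlap between groups. In control cells the difference was 0.53 ± 0.24 at 6 h (adjusted p = 0.159), and Irf9 rose by 0.80 ± 0.24 at 24 h (adjusted p = 0.0271). The 24 h call in control cells was lost without control LPS 24 h replicate 1, 3 or 5 or control unstimulated replicate 4 or 5, with differences of 0.72 to 0.78. Without the 2 arrays of the later slide the control rise was 0.81 at 6 h (adjusted p = 0.00288) and 0.89 at 24 h (adjusted p = 0.00169). The second Irf9 probe was dimmer and gave smaller values, with -0.40 for KO minus control unstimulated, 0.93 for LPS at 6 h in KO cells and 0.36 in control cells.

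Irf1 was the most induced gene of the family after Irf7. IRF1 activates interferon-gamma targets such as the immunoproteasome and guanylate-binding proteins. At 6 h of LPS it measured 3.23, 3.44, 3.73, 2.55 and 2.38 in KO cells, against -0.95, -0.08, -0.13, -0.12 and -0.39 in unstimulated KO cells, a rise of 3.40 ± 0.52 (limma adjusted p = 1.80e-05). At 24 h it measured 1.94, 2.11, 2.36, 0.74 and 0.78 in KO cells, a rise of 1.92 ± 0.52 (adjusted p = 0.00970). All 5 arrays of KO cells at 24 h lay below all 5 at 6 h, a difference of -1.48 ± 0.52 that missed the threshold (adjusted p = 0.0761). It passed under 7 settings, among them the fit without the later slide (adjusted p = 0.0248). In control cells Irf1 measured 2.69, 2.95, -0.78, 1.09 and 0.86 at 6 h and 1.71, 0.54, 2.00, 0.07 and 0.32 at 24 h, against -0.09, 0.30, 0.28, -0.67 and -0.84 unstimulated. The rise at 6 h was 1.57 ± 0.52 (adjusted p = 0.0464), and the 24 h difference was 1.13 ± 0.52 (adjusted p = 0.158). Without the later slide the control rise at 6 h was 2.10 (adjusted p = 0.00126). The 6 h call in control cells with all 30 arrays (1.57) was lost on leaving out any 1 of 18 of them, with 1.17 to 1.69, lowest without control LPS 6 h replicate 2. It was also lost with backgrounds as scanned (adjusted p = 0.0519), with only the arrays compared (adjusted p = 0.204) and without KO unstimulated replicates 1 and 5 (adjusted p = 0.0539). With KO unstimulated replicates 1 and 5 left out the 24 h difference in KO cells was 1.69 (adjusted p = 0.0681).

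Irf1 was higher in KO than in control cells at 6 h by 1.70 ± 0.52 (limma adjusted p = 0.0286), with overlapping arrays and an exact two-sided permutation p of 0.0556. Without the later slide the difference was 1.17 (adjusted p = 0.0985), and it was also not called without KO LPS 6 h replicate 1, 2 or 3 or control LPS 6 h replicate 4 or 5. Nor was it called with only the arrays compared in the fit (1.70, limma adjusted p = 0.153). The second Irf1 probe gave 1.05 for this difference and 2.53 for the rise at 6 h in KO cells.

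Irf2 passed in no comparison, and its arrays split by replicate number within most groups. IRF2 competes with IRF1 for its sites. At 6 h of LPS it measured 2.24, 2.37, 2.63, 0.97 and 0.94 in KO cells and 2.63, 2.75, 1.26, 1.12 and 1.04 in control cells. At 24 h it ranged over 0.54 to 1.69 in KO cells and 0.69 to 1.89 in control cells. Unstimulated cells had 1.16, 1.75, 1.91, 1.79 and 0.85 in KO and 1.81, 2.15, 2.35, 0.98 and 0.54 in control. Replicates 4 and 5 lay below replicates 1 to 3 in every group except unstimulated KO cells, where replicate 4 lay among the high arrays. The KO minus control difference was -0.08 (95% confidence interval -0.92 to 0.77) unstimulated, 0.07 (-0.78 to 0.92) at 6 h and -0.17 (-1.02 to 0.67) at 24 h. For Irf1, replicates 4 and 5 were the lowest of their group after LPS in KO cells at both times, and in control cells unstimulated and at 24 h.

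**Figure D2:**
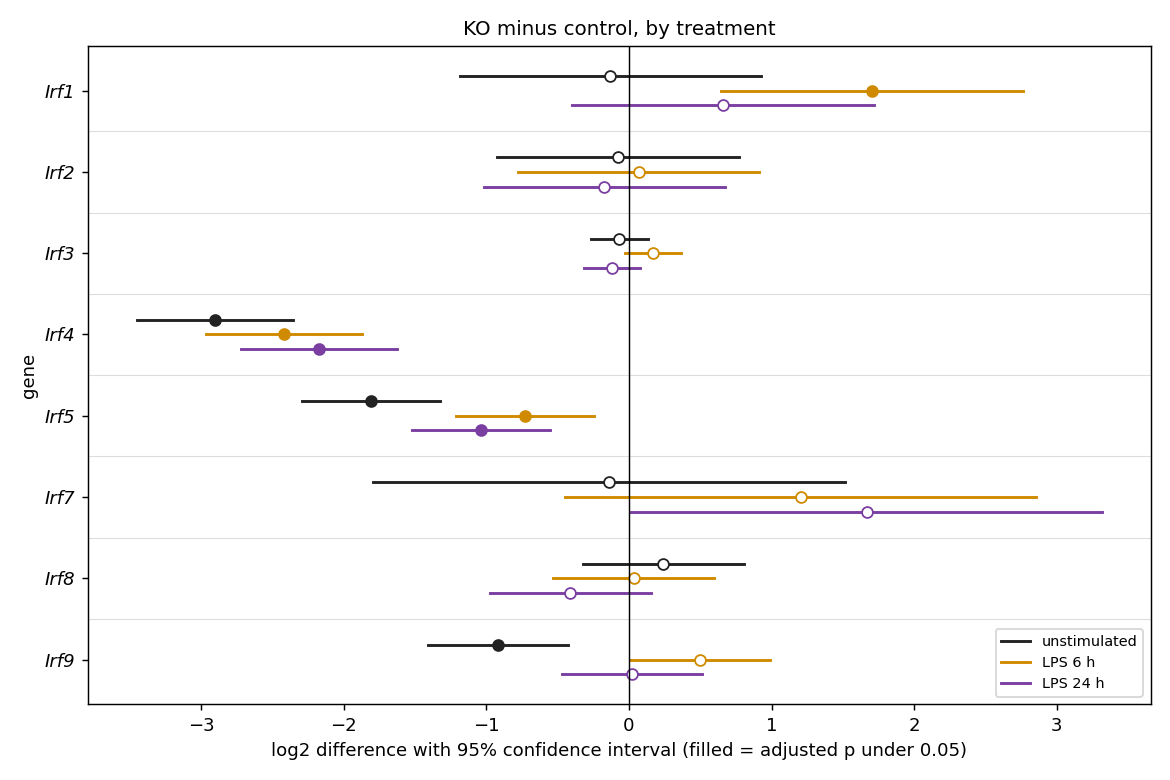
Log2 difference of KO minus control (x axis) for each gene (y axis) in unstimulated cells and after 6 and 24 h of LPS; points are differences of group means of 5 arrays each, bars are 95% confidence intervals, and filled points passed at an adjusted p under 0.05. Irf4 and Irf5 are lower in all 3 treatments, Irf9 is lower in unstimulated cells, Irf1 is higher at 6 h, and the intervals of Irf7 are the widest.

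Slides limited every comparison. No slide held both genotypes under 1 treatment, so slide and genotype cannot be told apart directly. A fit with the slide as a block links KO to control cells through chains of slides that held 1 to 3 arrays of each group. It ties each KO LPS group to the other groups by 1 array only, replicate 1 at 6 h and replicate 5 at 24 h. The other arrays of these groups shared a slide with no other group. In that fit 5693 of all genes passed between unstimulated KO and control cells, against 1585 without the block. Irf1 was then higher in unstimulated KO cells by 4.00 and at 6 h by 3.86, and lower at 24 h, by -4.09, and Irf8 was lower in KO cells at 24 h by -2.19 (limma adjusted p = 0.00530). Irf4 kept its negative sign in each treatment.

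Of the LPS responses in KO cells, the slide block kept the rises at 6 h of Irf1 (3.44), Irf7 (4.66) and Irf9 (1.67) and the rise at 24 h of Irf7 (2.58). It ended the calls at 6 h of Irf4 (1.17, limma adjusted p = 0.225) and Irf5 (1.15, adjusted p = 0.183), and at 24 h of Irf4 (1.00), Irf5 (0.10) and Irf9 (0.73), and it turned the 24 h difference of Irf1 to -3.38. In control cells Irf1 (3.57) and Irf7 (4.80) kept their rises at 6 h, Irf4 did not (0.94, adjusted p = 0.119), and at 24 h Irf7 rose by 5.87 and Irf9 by 1.68.

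The LPS response was set against itself between genotypes, as the response in KO cells minus that in control cells. None of the 8 genes passed at 6 h or at 24 h, where 0.436% and 0.88% of all genes passed by limma. At an unadjusted p under 0.05 there were 3 at 6 h, Irf1, Irf5 and Irf9, and 2 at 24 h, Irf5 and Irf9. The smallest p at 6 h was that of Irf9, with a difference of 1.41 ± 0.34 (adjusted p = 0.0556), followed by Irf5 with 1.08 ± 0.33 (adjusted p = 0.213). Without the later slide the Irf9 value was 1.14 and passed (adjusted p = 0.0309), and without KO unstimulated replicates 1 and 5 it was 0.99 and did not (adjusted p = 0.260). Blocking on replicate number, Irf9 (adjusted p = 0.0344) and Irf5 (adjusted p = 0.0402) passed at 6 h, and with a term for replicates 4 and 5 Irf9 passed (adjusted p = 0.0270). Irf7 had 1.34 at 6 h and 1.81 at 24 h, each with an SE of 1.14, and 0.40 and 0.86 without the later slide. A gene that rose in 1 genotype and missed the threshold in the other is not by that alone shown to differ in response.

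**Figure D3:**
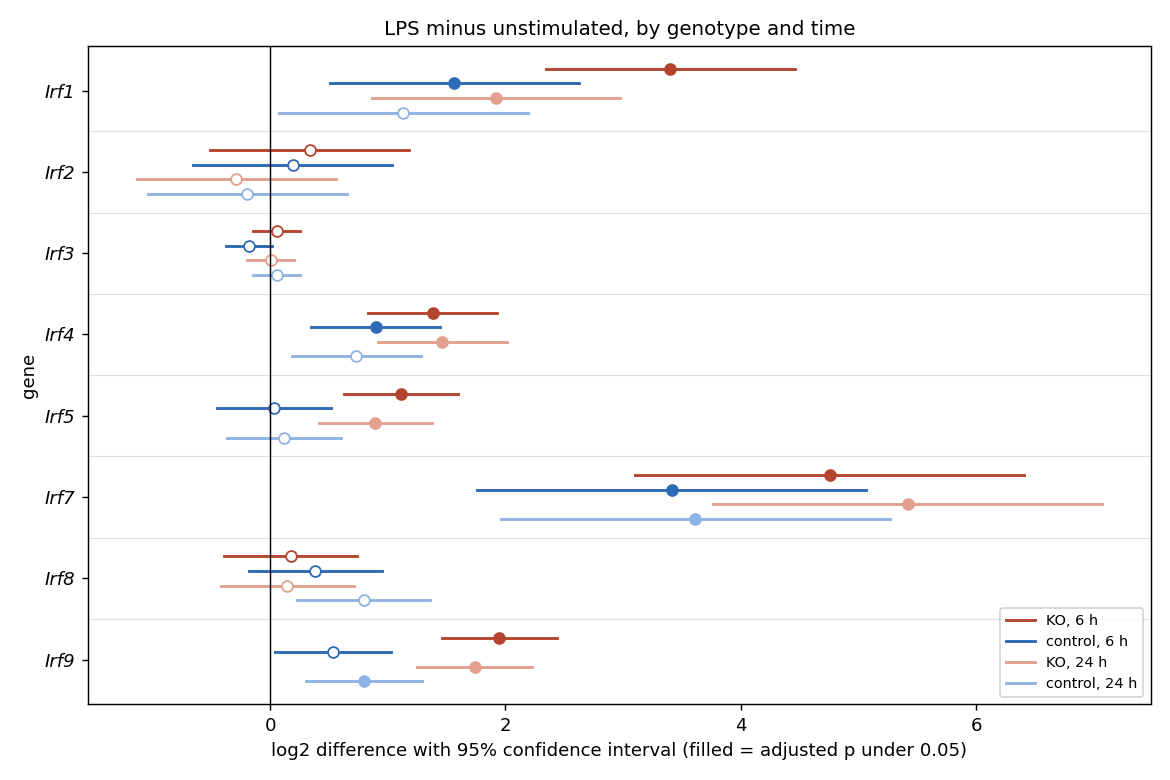
Log2 difference of LPS minus unstimulated (x axis) for each gene (y axis) at 6 and 24 h in KO and control cells; points are differences of group means of 5 arrays each, bars are 95% confidence intervals, and filled points passed at an adjusted p under 0.05. Irf7 and Irf1 have the largest differences, and Irf5 has filled points in KO cells with control values near 0.

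Genes that signal to IRFs were followed next. Among 16 genes from TLR4 to the kinases that phosphorylate IRF3 and IRF7, 2 were higher in unstimulated KO cells, 4 at 6 h and 4 at 24 h, with 1 lower at 24 h, where 14.1%, 12.1% and 15.4% of all genes passed in either direction. None of the 16 was called in unstimulated cells without KO unstimulated replicates 1 and 5, where only 905 of all 11250 genes passed. Tlr4 itself was higher in KO cells by 1.42 ± 0.25 at 6 h (limma adjusted p = 0.000320) and by 1.08 ± 0.25 at 24 h (adjusted p = 0.00339), and Azi2, an adaptor of the kinase TBK1, by 1.51 ± 0.28 at 6 h. These values include the later slide. Without it the median KO minus control difference of the 16 genes was 0.12 at 6 h and 0.04 at 24 h. With LPS at 6 h, 6 of the 16 rose and 1 fell in KO cells and 5 rose and 1 fell in control cells, where 26.6% and 11.7% of all genes passed. Tank, an adaptor of the same kinases, led in both (2.51 ± 0.29 and 1.09 ± 0.29). In control cells 8 rose without the later slide, with Tank at 1.45, where 25.6% of all genes passed. Of 8 interferon and receptor genes tested, 2 rose and 1 fell with LPS at 6 h in each genotype, beside the same 26.6% and 11.7% of all genes. Ifnb1, interferon-beta, rose by 2.62 ± 0.55 in KO cells (adjusted p = 0.000712) and by 2.11 ± 0.55 in control cells (adjusted p = 0.0110), and Ifngr1, a chain of the interferon-gamma receptor, fell by 1.03 and 2.00.

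Partners of the IRFs were also followed. Stat2, a partner of IRF9 in ISGF3, rose with LPS at 6 h by 3.75 ± 0.59 in KO cells (limma adjusted p = 3.14e-05) and by 2.01 ± 0.59 in control cells (adjusted p = 0.0261), or 2.58 without the later slide. Jak2, a kinase of cytokine receptor signalling, was lower in unstimulated KO cells by -1.89 ± 0.27 (adjusted p = 2.63e-05). Its 6 h response was greater in KO cells by 1.80 ± 0.39 (adjusted p = 0.0247), which did not pass without KO unstimulated replicates 1 and 5. Of 10 DNA-binding partners, 3 rose and 2 fell at 6 h in KO cells and 2 rose in control cells, where 26.6% and 11.7% of all genes passed. Batf2, a BATF-family factor that pairs with IRFs, rose by 2.99 ± 0.51 and 1.82 ± 0.51. Spib, a relative of PU.1, was lower in unstimulated KO cells by -0.96 ± 0.26 (adjusted p = 0.0116), and Batf3 was lower in KO cells at 6 h by -1.04 ± 0.28 (adjusted p = 0.0137). Of 9 cofactors and brakes, 6 rose at 6 h in KO cells and 3 in control cells, led by Usp18, which restrains interferon receptor signalling (4.81 ± 0.60 and 2.75 ± 0.60). In control cells 5 of the 9 rose without the later slide, with Usp18 at 3.53, where 25.6% of all genes passed.

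Genes known as targets of the family moved with LPS. All 17 type I interferon-stimulated genes tested rose at 6 h in both genotypes, where 26.6% (KO) and 11.7% (control) of all genes passed. At 24 h 17 rose in KO cells and 15 in control cells, beside 18.1% and 12.3% of all genes. The median difference of the 17 genes at 6 h was 4.91 in KO cells and 3.60 in control cells, beside medians of 0.02 and 0.01 over all genes. Their mean log2 ratio per array was 4.15 to 4.98 in KO cells and -0.65 to 4.76 in control cells at 6 h. With the later slide left out the control median at 6 h was 4.62, and 17 also rose in control cells at 24 h, beside 19.9% of all genes. In that fit Cxcl10 and Ifit1 rose in control cells by 9.13 and 6.74 at 6 h. Cxcl10, a chemokine, rose by 10.48 ± 1.21 in KO cells and 7.45 ± 1.21 in control cells at 6 h, and Ifit1, an inhibitor of viral RNA translation, by 7.98 ± 1.00 and 5.37 ± 1.00. Between genotypes 1 of the 17 was lower in unstimulated KO cells, the nucleic acid sensor Zbp1 (-1.91 ± 0.35, limma adjusted p = 0.000390), where 14.1% of all genes passed. Of 12 IRF1-linked genes, 10 rose at 6 h in KO cells and 8 in control cells, where 26.6% and 11.7% of all genes passed. In unstimulated KO cells 3 of the 12 were lower: Gbp2, a guanylate-binding protein (-1.81 ± 0.33), and the immunoproteasome subunits Psmb9 (-1.42 ± 0.28) and Psmb8 (-1.14 ± 0.19). The 6 h response of Gbp2 was greater in KO cells by 2.42 ± 0.47 (adjusted p = 0.00910), a call lost without KO unstimulated replicates 1 and 5. All 7 IRF5-linked cytokine genes rose at 6 h in KO cells and 6 in control cells, again beside 26.6% and 11.7% of all genes. Il6 rose by 8.32 ± 1.04 in KO cells and 4.17 ± 1.04 in control cells, where it rose by 5.81 without the later slide. Il12a, a subunit of interleukin-12, was higher in KO than in control cells by 2.24 ± 0.35 at 6 h (adjusted p = 9.60e-05). That control group holds an array of the later slide. Without that slide the median KO minus control difference of the 7 cytokine genes at 6 h was 0.28.

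Of 10 dendritic cell genes linked to IRF4, 8 were lower in unstimulated KO cells, 3 at 6 h and 2 at 24 h, where 14.1%, 12.1% and 15.4% of all genes passed in either direction. Ccl22, a chemokine that attracts T cells, was lower in unstimulated KO cells by -2.32 ± 0.37 (limma adjusted p = 8.01e-05), the costimulator Cd86 by -2.11 ± 0.47 (adjusted p = 0.00247) and Ciita, the coactivator of MHC class II genes, by -1.93 ± 0.33 (adjusted p = 0.000188). Leaving out KO unstimulated replicates 1 and 5, 6 of the 10 passed unstimulated, where 905 of all 11250 genes passed. With the slide as a block 3 were lower and 1 higher. In that fit 5693 of all genes passed, so these calls do not set the list apart from other genes. Of 9 genes linked to IRF8, 1 was higher and 1 lower in unstimulated KO cells. Clec9a, a receptor of cross-presenting dendritic cells, was the higher one, by 1.55 ± 0.15 (adjusted p = 1.45e-07), and Naaa, a lipid amidase, was lower by -0.95 ± 0.30 (adjusted p = 0.0348).

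**Figure D4:**
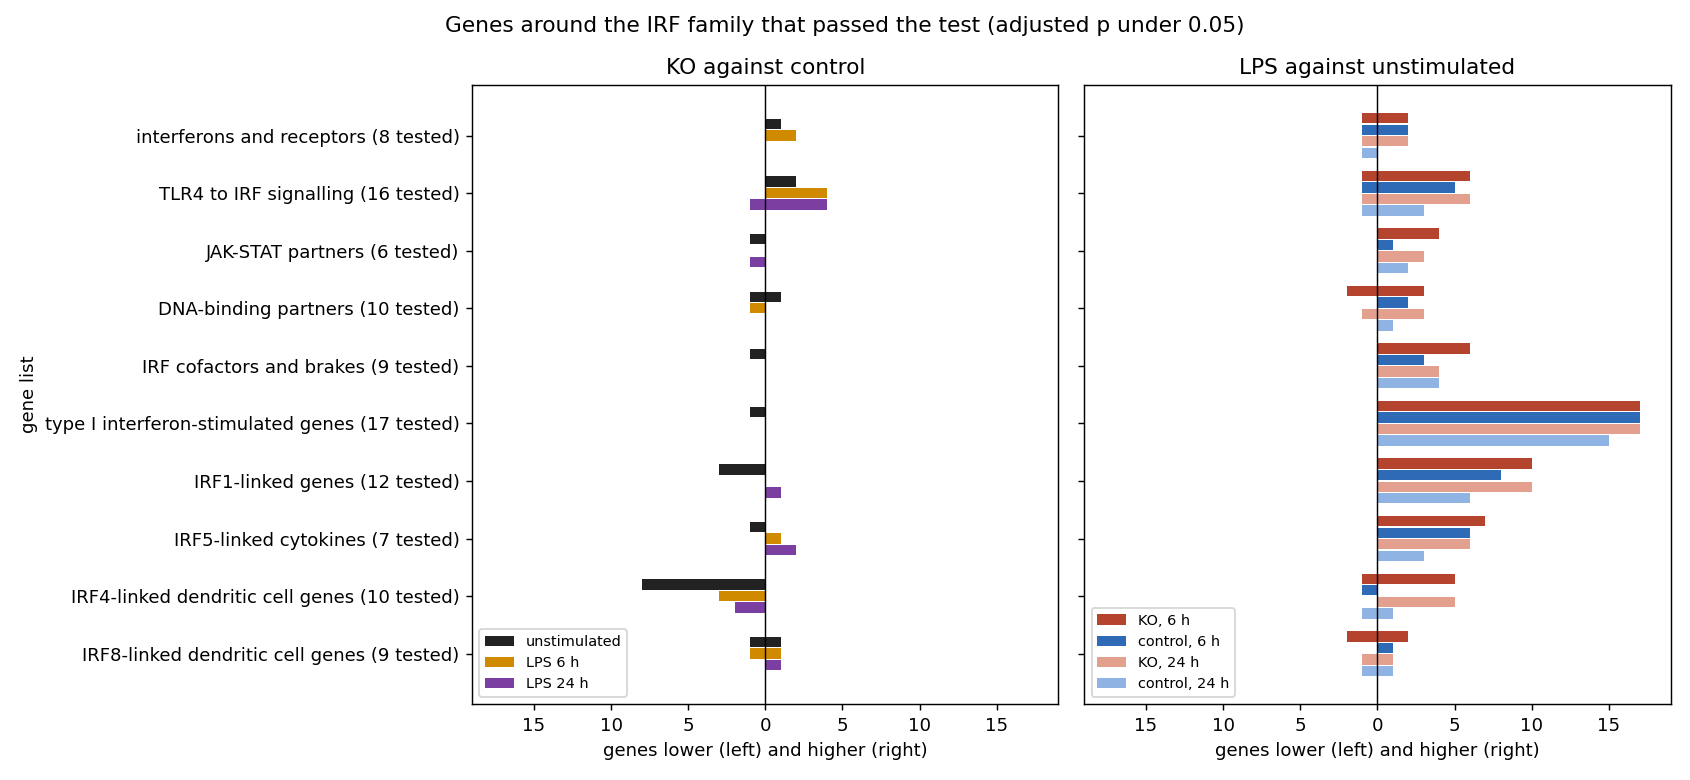
Number of genes that were lower (left of 0) or higher (right of 0) at an adjusted p under 0.05 (x axis) in 10 lists of genes around the IRF family (y axis, with the number tested), for KO against control in 3 treatments (left panel) and for LPS against unstimulated in KO and control cells (right panel). The list of IRF4-linked genes has 8 lower in unstimulated KO cells, where 14.1% of all genes passed. All 17 interferon-stimulated genes are higher at 6 h of LPS in both genotypes, where 26.6% (KO) and 11.7% (control) of all genes passed.

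Markers of dendritic cells and of other cell types were also compared between genotypes. Of 8 dendritic cell markers tested, 5 were lower in unstimulated KO cells, 3 at 6 h and 2 at 24 h, the same direction as Irf4 and Irf5. Of all genes 14.1%, 12.1% and 15.4% passed in either direction, and Ciita and Cd86 also stand in the list of IRF4-linked genes. The mean log2 ratio of the 8 markers per array was 1.69 to 2.72 in unstimulated KO cells, against 3.37 to 3.54 in control cells, while Itgax itself averaged 4.41 and 4.01. Of 10 macrophage markers, 2 were higher in unstimulated KO cells (Marco by 2.28 ± 0.43 and Trem2 by 0.93 ± 0.24) and 1 at each LPS time. Those counts lie near the shares of all genes, 14.1%, 12.1% and 15.4%. The mean of the 10 markers per array was 2.92 to 3.88 in unstimulated KO cells, against 2.45 to 3.40 in control cells. The mean of 7 neutrophil markers was 0.48 to 1.82 in unstimulated KO cells, against 1.42 to 3.16 in control cells. Of these, Ngp, Ltf and Cxcr2 were well above background on 15, 17 and 16 arrays and passed the filter through the groups where they were high. Camp was well above background on 23 arrays, so the mean includes genes near background on part of the arrays. S100a8 and S100a9, above background on all 30, were lower in KO cells at 6 h (S100a8, -3.18 ± 1.00) and at 24 h (S100a9, -3.43 ± 0.73). The neutrophil granule genes Elane and Prtn3 and the plasmacytoid dendritic cell marker Siglech were well above background on 0 of 30 arrays. Other genes of these lists were detected. The granule gene Mpo was well above background on 29 arrays. Of the plasmacytoid markers, Bst2, Tcf4, Pacsin1 and Ly6d were so on all 30 and Ccr9 on 29. The part of cell makeup in the differences of the IRF genes was not tested.

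Across the 30 arrays each gene was matched with the 3 genes outside the family whose log2 ratios were most like its own, as a description with no test, since the arrays fall into groups and share 1 reference RNA. Irf4 was most like Gimap1 (Pearson r = 0.943), Stap2 (0.932) and Cnn2 (0.930). Irf5 was most like Tmtc2 (0.917), Cd74, the invariant chain of MHC class II (0.907), and Syngr2 (0.901). Irf7 was most like Ptges, a prostaglandin E synthase (0.988), Ifit3, an interferon-stimulated gene (0.986), and H2-T22 (0.980). Irf9 was most like Gbp2 (0.964), Traf1 (0.963) and Psmb9 (0.952), and Irf1 like Irgm2 (0.973), Map2k1 (0.973) and Igtp (0.972). For Irf2 the closest was Ptprj (0.945), for Irf8 Ddx6 (0.819), and for Irf3, which varied least, Cdh2 (0.750).

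Within the family the pair most alike over the 30 arrays was Irf4 and Irf5 (r = 0.910), followed by Irf7 and Irf9 (0.835) and Irf1 and Irf7 (0.824). KO unstimulated replicates 1 and 5 held the lowest values of Irf4, Irf5 and Irf9 in the whole series. Irf7 separated arrays by LPS in both genotypes except for the 2 arrays of the later slide. On control LPS 24 h replicate 2 Irf9 stood at 2.05 and Irf4 at 2.68, the highest Irf4 value of all arrays, while Irf7 stood at -1.61.

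**Figure D5:**
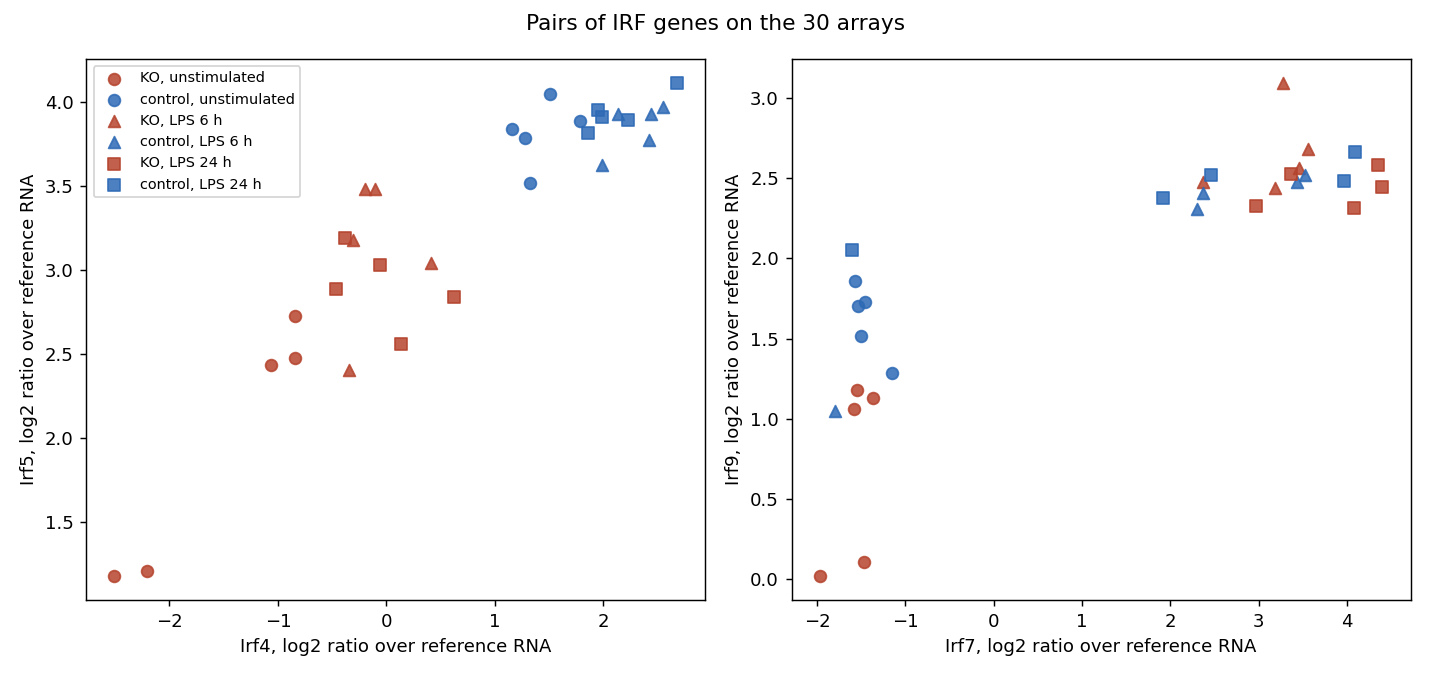
Log2 ratio over reference RNA of Irf5 (y axis) against Irf4 (x axis) in the left panel and of Irf9 against Irf7 in the right panel, 1 point per array, red for KO and blue for control, with circles for unstimulated cells, triangles for LPS 6 h and squares for LPS 24 h. Irf4 and Irf5 place every KO array below every control array, and on Irf7 a control triangle (-1.79) and a control square (-1.61) lie among the unstimulated arrays.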

How the data were processed

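RNA of 30 samples was hybridised to 2-colour Agilent arrays with Cy5 for the sample and Cy3 for the reference, without dye swap. Spot intensity values were deposited as scanned, per the file headers from Agilent Feature Extraction 10.7.3.1. The same files hold a deposited log10 ratio of Cy5 over Cy3. The authors' deposited table of log2 ratios, made with limma per the submitters' processing notes, correlated with the values used here at r = 0.999885 to 0.999998 on every array, so its scale and direction are those of Cy5 over Cy3, with medians of 0.00584 to 0.0183.

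Median intensities were background-corrected (normexp, offset 50, local backgrounds flagged non-uniform set to the array's median) and loess-normalised with control spots at weight 0, and outlier spots were left out (limma 3.58.1, R 4.3.3). No spot used was saturated. Of 41174 probes, 22951 were named through their accession in RefSeq. Probes were kept where some group of 5 arrays was well above background throughout in Cy5, and the probe brightest in Cy5 stood for its gene. The fit had a mean for each of the 6 groups over 30 arrays, with 24 residual degrees of freedom. The 11 differences were tested with eBayes, and p-values were adjusted by Benjamini-Hochberg over 11250 genes. Exact two-sided permutation tests used 252 splits. The number of arrays limits the precision.

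The 8 genes, and the lists of related genes and cell markers, were chosen with earlier results of these data known. All 8 are named in every comparison, and of a list up to 3 called genes with the largest change in the main direction and 1 in the other. Alternatives varied background, normalisation, filter, probe choice, blocks and arrays. The setting without KO unstimulated replicates 1 and 5 was chosen after seeing the data. Promoter windows came from RefSeq.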

Additional observations from a re-analysis of the deposited data

Results flagged for a closer look

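In 4 of 48 groups of 5 arrays, 1 array lay apart from the other 4, where chance flags about 1 in 20. For Irf7 this was control unstimulated replicate 5, at a log2 ratio of -1.15, above the others. On control LPS 6 h replicate 3 it was Irf7 at -1.79, Irf8 at 1.90 and Irf9 at 1.05, each below the others. That array was on the slide scanned later than the others.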

How the results depend on the processing

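Of the 88 gene-by-comparison results, all kept their side of the threshold with the authors' deposited table, without the filter on dim probes and with a filter on all 30 arrays. With the slide as a block, 54 kept it, 11 lost the call, 14 gained one and 9 changed sign with a call in at least 1 of the fits, and a further 17 changed sign with no call in either. The numbers of the 8 genes called were then 5, 1 and 4 for KO against control unstimulated, at 6 h and at 24 h. Of all 11250 genes 5693, 1205 and 5069 passed there. In KO cells 3 were called for LPS 6 h and 3 for 24 h against 6 h (892 and 5837 of all genes). In control cells 5 were called for LPS at 6 h and 5 at 24 h (3869 and 4714 of all genes). For the 24 h response between genotypes 4 were called (6028 of all genes). The 9 were KO against control for Irf1 (4.00 unstimulated and -4.09 at 24 h), Irf2 (3.18 unstimulated) and Irf7 (1.92 unstimulated), LPS at 24 h in KO cells for Irf1 (-3.38) and Irf8 (-1.67), LPS at 24 h in control cells for Irf2 (2.52), and the 24 h response between genotypes for Irf1 (-8.09) and Irf7 (-3.29). In that fit each KO LPS group was tied to the other groups by 1 array only. The cause of these changes was not tested.

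With the replicate number as a block, 1 gene was called at 24 h against 6 h in KO cells, 4 for LPS at 24 h in control cells and 2 for the 6 h response between genotypes (Irf9 and Irf5), and no call was lost. Of all 11250 genes 2017, 2757 and 154 passed in these comparisons. With each group's mean taken from each gene, same-numbered arrays of different groups correlated at -0.335 to 0.875 (median 0.555). Those of number 5 correlated at 0.534 to 0.813, and arrays of different numbers and groups at a median of -0.167. The deviations of a group cancel out for each gene, so positive values for same numbers push those for different numbers down. The labels do not say that the numbers mark a shared source. With a term for replicates 4 and 5 against 1 to 3 these counts were 1, 4 and 1. Without the later slide, 1 was called for KO against control at 6 h, 1 at 24 h against 6 h in KO cells, 5 for LPS at 6 h in control cells and 1 for the 6 h response between genotypes. Of all genes 1626, 1482, 2876 and 143 passed there. Without KO unstimulated replicates 1 and 5, 3 were called for LPS at 24 h in KO cells, where 1438 of all genes passed. With only the arrays compared in the fit, which has fewer samples, 1 was called for KO against control at 6 h, 1 at 24 h against 6 h in KO cells, and 1 at 6 h and 4 at 24 h for LPS in control cells. Of all genes 723, 1161, 71 and 980 passed there. With median centring 4 calls were lost, Irf4 for LPS at 6 h in control cells and Irf5 for LPS at 6 h and at 24 h in KO cells and for KO against control at 6 h, and 1 was gained, Irf8 for LPS at 24 h in control cells. With backgrounds as scanned, 1 was called for LPS at 6 h in control cells, where 893 of all genes passed, and Irf8 was gained for LPS at 24 h in control cells. With Cy5 alone and with the mean of all probes, 1 was called at 24 h against 6 h in KO cells, where 1101 and 956 of all genes passed. Both settings also gained Irf8 for LPS at 24 h in control cells.

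Leaving out 1 array gave 3 to 3, 1 to 3 and 2 to 2 genes called for KO against control unstimulated, at 6 h and at 24 h. For LPS in KO cells it gave 5 to 5 at 6 h, 5 to 5 at 24 h and 0 to 1 at 24 h against 6 h, and in control cells 1 to 5, 1 to 3 and 0 to 0. For the response between genotypes it gave 0 to 1 at 6 h and 0 to 0 at 24 h.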
